A study of Mus musculus with 9 samples.

Results

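Mouse embryos titled Carm1-/- were set directly against embryos titled H3R17H, without the wild-type embryos as a go-between. Both groups are C57BL/6 embryos cultured in vitro, taken 4.5 days after microinjection, the age of the late blastocyst. Their genotype labels name a loss of Carm1 in the first group and, in the second, the H3R17H substitution, by which histone H3 carries histidine in place of arginine 17, and the series title names CRISPR-Cas9 editing. Each group holds 3 libraries, so the comparison uses 6 of the 9 libraries of the series. The other 3, titled WT, are wild type, of the same strain and age, and are given only as reference values with no test. Of the 16070 rows of the deposited table, 10960 genes reached 1 FPKM in at least 3 of the 6 libraries and were tested. FPKM gives the fragments of a gene scaled to the length of its transcript and to the size of its library.

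CARM1 is a protein arginine methyltransferase that places a methyl mark on arginine 17 of histone H3 and also methylates many proteins that are not histones. A missing enzyme, or a changed residue in every copy of H3, would therefore remove this mark, but only the first would also affect the other substrates. That difference is the question behind a direct comparison of the groups. RNA levels show neither the mark nor how much of H3 carries the substitution. In the blastocyst the trophectoderm forms the outer layer and the inner cell mass gives the epiblast and the primitive endoderm. Yap, the effector of the Hippo pathway named in the series title, works with TEAD4 in outer cells to switch on Cdx2 and Gata3.

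The levels of Carm1 do not match the titles. The gene, on the plus strand of chromosome 9 (21546894 to 21592623 in GRCm38), was at 1.88, 0.02 and 1.22 FPKM in the libraries titled H3R17H. It was at 6.44, 12.68 and 9.52 FPKM in the libraries titled Carm1-/-. The 3 libraries titled for the loss of the gene thus hold the higher levels, close to or above the WT values of 6.65 to 8.86 FPKM, and the groups do not overlap. The difference was 2.45 on the log2(FPKM + 1) scale (SE 0.49, limma adjusted p = 0.668). The column names of the table are crossed with the titles in the same way, with Carm for the libraries titled H3R17H and Hist for those titled Carm1-/-. All groups below are named by their titles, and no direction is tied to a genotype. Yipf2 overlaps Carm1 on the other strand, and whether the counting used strand is not given in the sources used here.

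Other properties of the libraries touch the results. Summed Y-linked transcripts were 36.6 FPKM in replicate 1 titled H3R17H, 28.1 FPKM in replicate 1 titled Carm1-/- and at most 0.008 FPKM in the other 4, so each title holds 1 library with and 2 without them. Xist RNA, which silences an X chromosome in cells that have a pair of them, was 16.6 to 32.5 FPKM in those 4 libraries. It was 4.84 FPKM in replicate 1 titled H3R17H and 0.26 FPKM in replicate 1 titled Carm1-/-. All 3 WT libraries held Y-linked transcripts, at 30.7 to 35.7 FPKM, with Xist at 0.19 to 0.43 FPKM. The WT reference values below therefore come only from libraries with Y-linked transcripts. Pearson's r, computed over genes and so not over replicates, was 0.849 to 0.903 among the libraries titled Carm1-/-, 0.928 to 0.940 among those titled H3R17H and 0.882 to 0.931 between the titles. On the first principal component (35.3% of the variance) the libraries titled Carm1-/- lay at -65.5, 59.7 and 0.6, and those titled H3R17H between them, while the second (21.2%) separated the titles. Replicate 1 titled Carm1-/- stands apart in many lists below. Of markers of other cells, 2 of 14 for cumulus and granulosa cells, 1 of 10 for fibroblasts and 3 of 10 for blood were in the table. Their summed levels overlapped between the titles, at 2.48 to 9.80 against 4.68 to 9.93 FPKM, 0 to 0.52 against 0 to 1.59 FPKM, and 26.5 to 62.6 against 29.9 to 65.7 FPKM for H3R17H and Carm1-/-. The labels give both the embryo and a single cell as the source and do not say that libraries came from separate embryos, so the p-values speak of no more than the spread among these 6.

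No gene passed the threshold of 0.05 in limma after Benjamini-Hochberg adjustment over all 10960 genes (0% called). At an unadjusted limma p under 0.05 there were 297 genes higher in the libraries titled Carm1-/- (2.71% of those tested) and 294 lower (2.68%). All 3 libraries of one title lay above all 3 of the other for 570 higher genes (5.20%) and 671 lower genes (6.12%). Of all genes 48.3% had a difference above 0, and the median difference was -0.02 on the log2 scale. The counts at an unadjusted p under 0.05 depend on single libraries. They were 191 higher and 150 lower without replicate 1 titled H3R17H, 510 lower without replicate 1 titled Carm1-/- and 497 higher without replicate 2 titled Carm1-/-. With 3 libraries on each side, the smallest two-sided p of an exact permutation test is 0.1. On simulated data with known changes, the same fit called 1.54% of genes given a log2 change of 1, 35.8% at a change of 2 and 67.6% at a change of 3, with 0 false calls. The genes and groups below are therefore described by their values, and none of them is called. Counts of list members are to be read beside the shares over all genes given here.

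**Figure D1:**
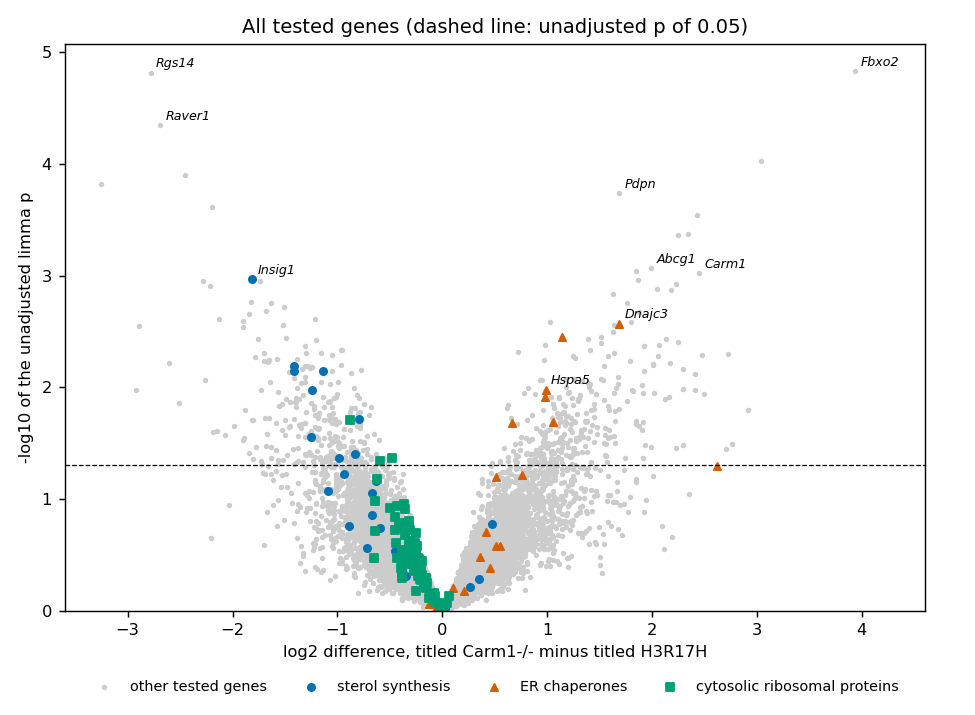
Log2 difference (titled Carm1-/- minus titled H3R17H, x axis) against -log10 of the unadjusted limma p (y axis) for the 10960 tested genes, with 3 gene lists coloured. Sterol synthesis genes lie mostly left of 0 and chaperones of the endoplasmic reticulum (ER) mostly right of it, and Fbxo2 and Rgs14 have the smallest p.

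Fbxo2 and Rgs14 shared the lowest adjusted p, 0.0838 in limma. Fbxo2 encodes an F-box protein that recognises glycoproteins with high-mannose sugars for degradation (chromosome 4, 148160621 to 148166424, plus strand). It was at 0.04, 0.05 and 1.32 FPKM in the libraries titled H3R17H and at 18.8, 16.8 and 25.01 FPKM in those titled Carm1-/-. All 3 libraries titled Carm1-/- are far above both the other title and WT, which stood at 6.63, 2.27 and 1.81 FPKM. The log2 difference was 3.94 (SE 0.44). Rgs14, a regulator of G-protein signalling (chromosome 13, 55369732 to 55384687, plus strand), went the other way. It was at 31.2, 32.5 and 35.1 FPKM in the libraries titled H3R17H and at 3.46, 3.30 and 5.24 FPKM in those titled Carm1-/-. Here the title H3R17H stands apart, with libraries close to each other and above all WT values of 1.39 to 9.45 FPKM. The log2 difference was -2.78 (SE 0.31).

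Raver1, a ribonucleoprotein that binds splicing factors (chromosome 9, 21074158 to 21092008, minus strand), was at 5.59, 4.52 and 6.39 FPKM in the libraries titled H3R17H. It is listed at 0 in all 3 libraries titled Carm1-/- (limma adjusted p = 0.165). WT libraries were at 8.12, 5.16 and 3.68 FPKM, so only the libraries titled Carm1-/- are without a value. The predicted model Gm38431 overlaps Raver1 on the same strand and was named after its values were seen. Gm38431 was at 0.11, 0.21 and 0.12 FPKM in the libraries titled H3R17H and at 2.19, 1.14 and 1.23 FPKM in those titled Carm1-/-. The model is thus higher where Raver1 is at 0, and reads of the shared sequence could have been given to either.

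The rule that took the genes with the smallest p named further higher ones. Pdpn, the membrane glycoprotein podoplanin, was at 22.4, 23.0 and 31.6 FPKM in the libraries titled H3R17H and at 95.4, 87.3 and 71.0 FPKM in those titled Carm1-/-. Its log2 difference was 1.69 (SE 0.27, limma adjusted p = 0.287), and WT, at 59.5 to 112 FPKM, overlapped the title Carm1-/- only. Trf, transferrin, which carries iron, was listed at 0 in replicates 1 and 2 titled H3R17H and was 0.40 FPKM in the third. Trf reached 3.10, 5.73 and 6.88 FPKM in the libraries titled Carm1-/- (limma adjusted p = 0.348), above WT at 0 to 0.71 FPKM. Abcg1, a transporter that exports cholesterol from cells, was at 0.52, 1.84 and 1.21 FPKM against 8.22, 6.34 and 7.79 FPKM. The log2 difference of Abcg1 was 1.99 (SE 0.39, limma adjusted p = 0.668). Plin5, a coat protein of lipid droplets, was at 0, 1.11 and 0 FPKM against 6.97, 5.07 and 3.09 FPKM. Cdkn2b, an inhibitor of cyclin-dependent kinases, was at 1.82, 1.13 and 1.68 FPKM against 10.3, 7.83 and 6.58 FPKM. In each of these genes the lowest library titled Carm1-/- is above the highest titled H3R17H, as the rule that named them requires. Isoc2b, Nipsnap1 and Trappc6a, the other genes of this rule besides Carm1, had log2 differences of 2.35 (SE 0.42), 1.76 (SE 0.39) and 1.03 (SE 0.24).

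Among the lower genes, Insig1 and Scd2 belong to lipid metabolism. Insig1, the protein that holds the sterol sensor in the ER and is itself a target of the sterol response (chromosome 5, 28071363 to 28078662, plus strand), was at 92.3, 102 and 87.5 FPKM in the libraries titled H3R17H. It was at 14.4, 29.8 and 40.4 FPKM in those titled Carm1-/-, a log2 difference of -1.81 (SE 0.37, limma adjusted p = 0.668). The title H3R17H stands above WT as well, which was at 15.4 to 34.4 FPKM. Scd2, a desaturase that puts a double bond into fatty acids, was at 87.1, 89.2 and 69.8 FPKM against 28.2, 30.6 and 47.6 FPKM (log2 difference -1.22, SE 0.28). Tkfc, a kinase of triose sugars, was at 4.79, 4.66 and 9.21 FPKM against 1.37, 0 and 0.24 FPKM, and overlaps Ddb1 and Cyb561a3 on the other strand. Ptcd1, which acts on mitochondrial RNA, had a log2 difference of -1.68 (SE 0.38). Mgl2, a lectin, was at 17.3, 14.3 and 10.3 FPKM against 1.73, 2.27 and 5.83 FPKM. The libraries of the titles do not overlap in any of these. Snord68 lies within Rpl13 and its reads cannot be told from that gene's, and Hist1h2ab, a replicative histone with near-identical copies, had a log2 difference of -2.89 (SE 0.69).

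**Figure D2:**
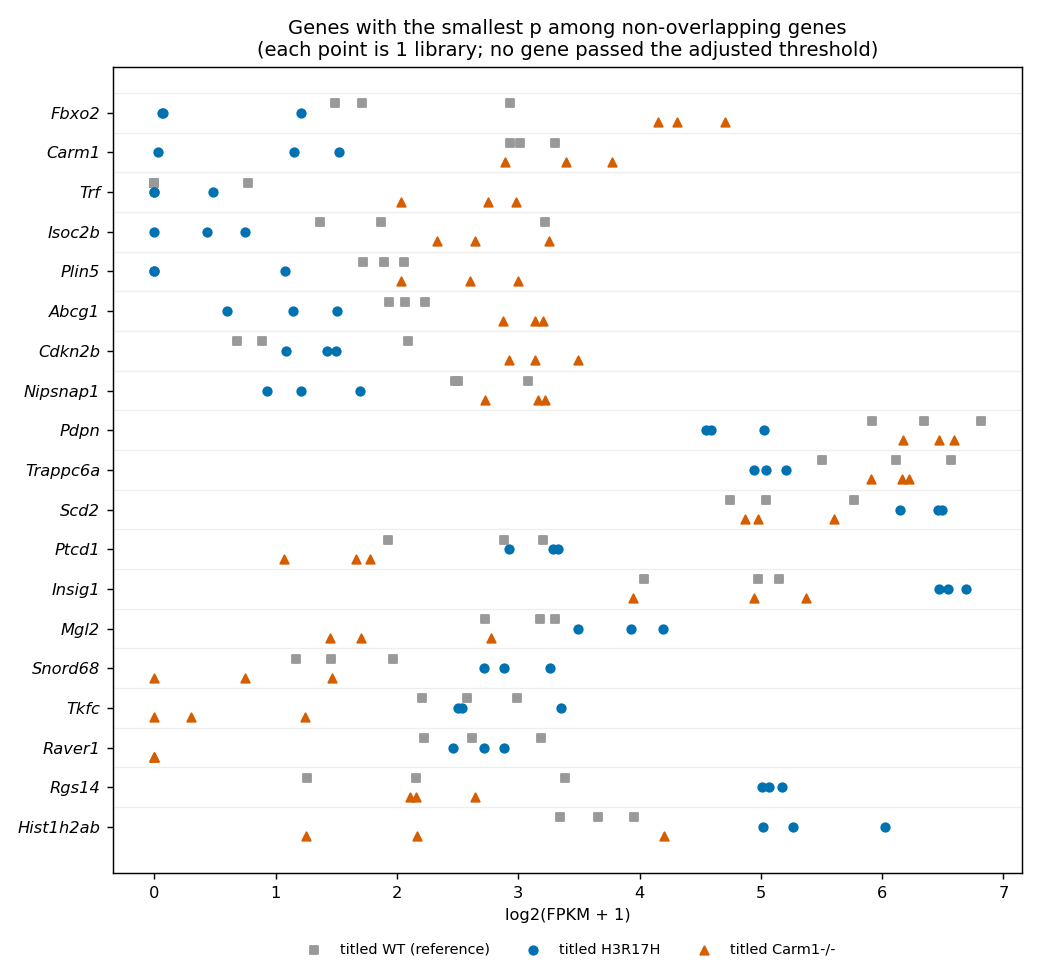
Level of genes with the smallest p among non-overlapping genes, 10 of the higher and 9 of the lower, as log2(FPKM + 1) on the x axis, 1 point per library. Points titled H3R17H and Carm1-/- do not overlap in any gene, by the rule that chose them, and Raver1 is listed at 0 in all 3 libraries titled Carm1-/-.

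Sterol synthesis had the lowest median of the gene lists. In cells low in sterol, the SREBP transcription factors leave the ER and switch on the enzymes of cholesterol synthesis together with Insig1. Of 24 tested genes of this pathway 20 had lower values in the libraries titled Carm1-/- and 4 higher. The median log2 difference was -0.76 against -0.02 over all genes. At an unadjusted limma p under 0.05 there were 9 lower (2.68% over all genes) and 0 higher genes. In all 3 libraries 10 were lower without overlap (6.12% over all genes), and 0 passed after adjustment. In single libraries the list median, relative to the mean of the 6, was 0.70, 0.04 and 0.42 for the title H3R17H and -0.49, -0.34 and -0.04 for the title Carm1-/-. The titles do not overlap, and replicate 2 titled H3R17H and replicate 3 titled Carm1-/- are close to each other. WT lay at -0.44 to -0.15, with the libraries titled Carm1-/-. Among only the libraries without Y-linked transcripts 21 of 24 were lower and the median was -0.46, and it was -0.98 to -0.62 with any 1 library left out. Without replicate 1 titled H3R17H 5 of the 20 lower genes were at an unadjusted limma p under 0.05.

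Lss, which closes the sterol ring, was at 22.7, 17.4 and 18.8 FPKM in the libraries titled H3R17H and at 9.18, 10.1 and 6.25 FPKM in those titled Carm1-/- (log2 difference -1.14, SE 0.32, limma adjusted p = 0.821). Hmgcs1, which acts near the start of the pathway, was at 65.0, 36.0 and 43.1 FPKM against 14.1, 15.9 and 30.98 FPKM (-1.24, SE 0.38). Neither overlaps between the titles. Fdps, which makes farnesyl diphosphate, was at 548, 387 and 459 FPKM against 149, 336 and 341 FPKM (-0.84, SE 0.34). Pmvk, a kinase of the mevalonate steps, had a log2 difference of -0.79 (SE 0.28) and Idi1, an isomerase of the same steps, of -1.25 (SE 0.47), and these 3 do not overlap either. Of enzymes that act after ring closure, Cyp51 had a log2 difference of -1.09 (SE 0.56) and Dhcr7 of -0.67 (SE 0.35), both overlapping. The 4 genes with higher values were Ebp at 0.48 (SE 0.32), Nsdhl at 0.35 (SE 0.53), Tm7sf2 at 0.27 (SE 0.51) and Sc5d at 0.02 (SE 0.36), all overlapping and all enzymes of steps after ring closure. Srebf2, the factor that drives the pathway, was at 8.70, 4.71 and 3.69 FPKM against 2.03, 3.43 and 1.79 FPKM (-0.93, SE 0.43).

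The list of fatty acid and lipid genes was divided. Of 24 tested, 11 were higher and 13 lower (2 and 4 at an unadjusted limma p under 0.05), with a median of -0.03. The split was 7 higher and 17 lower without replicate 1 titled Carm1-/-. The synthesis enzymes were among the lower ones. Acly, which makes cytosolic acetyl-CoA, was at 71.3, 53.5 and 85.6 FPKM against 42.4, 35.0 and 26.7 FPKM (-0.99, SE 0.29). Fasn, the fatty acid synthase, was at 9.82, 6.81 and 7.58 FPKM against 3.21, 2.26 and 4.09 FPKM (-1.13, SE 0.37). Neither overlaps between the titles, and the exporter Abcg1 in the same list was higher, as given above.

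**Figure D3:**
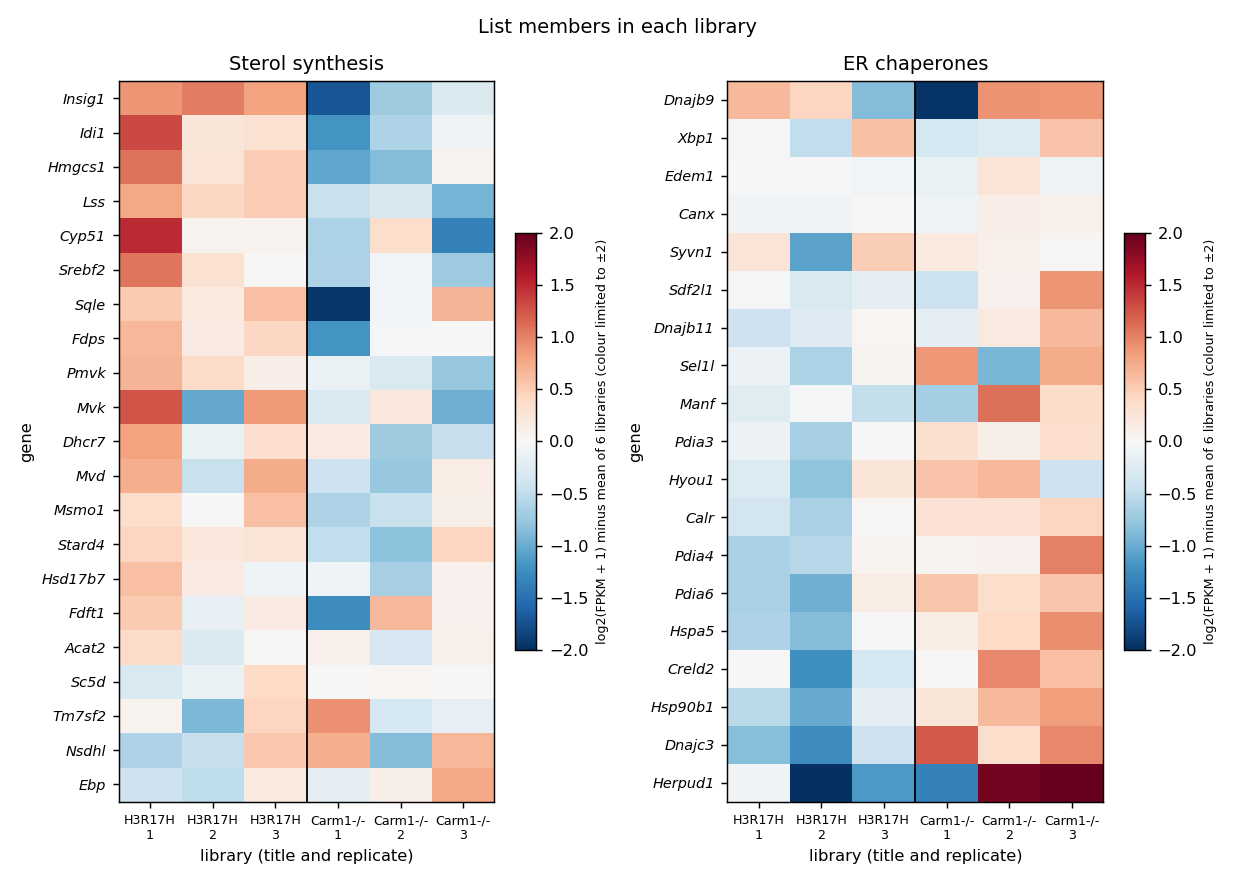
Each row is a gene of the list (21 of the 24 sterol genes and all 19 ER chaperones) and each column a library, coloured by log2(FPKM + 1) minus the mean of the 6 libraries (limited to 2 on either side). Most sterol genes are red under H3R17H and blue under Carm1-/-, and most ER chaperones show the reverse, with replicate 2 titled H3R17H the lowest.

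Chaperones of the ER had higher values in the libraries titled Carm1-/-. These proteins fold newly made secreted and membrane proteins, and many of their genes carry a promoter element, the ER stress element, through which ATF6 and its partner NF-Y raise them in the unfolded protein response. Of 19 tested genes 17 were higher and 2 lower. The median log2 difference was 0.52 against -0.02 over all genes. At an unadjusted limma p under 0.05 there were 6 higher (2.71% over all genes) and 0 lower. Without overlap 7 were higher (5.20% over all genes), and 0 passed after adjustment. The list median in single libraries was -0.12, -0.66 and -0.01 for the title H3R17H and 0.06, 0.29 and 0.60 for the title Carm1-/-. The titles do not overlap, but replicate 3 titled H3R17H and replicate 1 titled Carm1-/- are near each other, and WT lay at 0.09 to 0.43. With any 1 library left out the median was 0.40 to 0.69, and among the libraries without Y-linked transcripts all 19 were higher, with a median of 0.73.

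The promoters are shown because the 6 genes of this list at an unadjusted p under 0.05 all held the element. They are stretches upstream of the start from RefSeq (GRCm38.p6), on the strand of the gene, 5′ to 3′, with the fixed letters of each match in capitals. A match is CCAAT, any 9 bases and CCACG on either strand, so a reversed one reads CGTGG first and ATTGG last. Dnajc3 lies at chr14:118937807-118937865 (plus), Hsp90b1 at chr10:86705513-86705676 (minus), Pdia6 at chr12:17266471-17266529 (plus), Creld2 at chr15:88819500-88819558 (plus) and Calr at chr8:84847055-84847113 (minus).
Dnajc3: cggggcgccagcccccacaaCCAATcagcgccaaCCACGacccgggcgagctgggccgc
Hsp90b1: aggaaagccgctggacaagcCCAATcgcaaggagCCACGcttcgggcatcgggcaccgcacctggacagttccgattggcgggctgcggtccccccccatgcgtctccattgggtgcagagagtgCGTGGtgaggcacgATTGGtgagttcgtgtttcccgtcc
Pdia6: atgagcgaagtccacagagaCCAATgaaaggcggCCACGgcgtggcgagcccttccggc
Creld2: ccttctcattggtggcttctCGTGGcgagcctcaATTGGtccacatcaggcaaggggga
Calr: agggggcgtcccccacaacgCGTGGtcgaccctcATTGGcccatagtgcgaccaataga
Hsp90b1 has 2 matches, in opposite directions, and the others 1 each, between 79 and 143 bases from the start. The sixth gene is Hspa5, and its stretch is not shown.

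The element was found within 250 bases upstream of 8 of the 17 list members with a RefSeq window (47.1%), against 35 of 27025 RefSeq genes (0.130%) and 20 of 7842 tested genes with a window (0.255%). The 8 members had a median log2 difference of 0.98, all above 0, and besides the 6 they were Canx at 0.10 (SE 0.20) and Syvn1 at 0.21 (SE 0.47). The 9 members with a window and no element had a median of 0.42, with 7 above 0 and 0 at an unadjusted limma p under 0.05. Outside the list 12 tested genes held the element, 9 of them higher, with a median of 0.19. The X-linked copies Xlr3a, Xlr3b and Xlr3c, whose reads can be shared, make up 3 of these 12. The shorter CCAAT, which lies within the element and is bound by NF-Y, was found for 94.1% of ER chaperones and of sterol genes alike, against 37.5% of all RefSeq genes. The sterol element TCACNCCAC was found for 1 of 17 sterol genes with a window, Hmgcs1, against 1.22% of all RefSeq genes. Its stretch is at chr13:119690194-119690242 (plus, GRCm38.p6), the match in capitals.
Hmgcs1: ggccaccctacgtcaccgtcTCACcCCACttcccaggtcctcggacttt
These matches describe letters in a window and not the binding of a factor. The ER stress element is known from many ER chaperone genes, and it is shown here because list members of small p held it. Neither its share in that list nor the medians with and without it are therefore a test.

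Dnajc3, a co-chaperone that also restrains the kinase PERK, was at 3.37, 2.29 and 4.90 FPKM in the libraries titled H3R17H and at 17.4, 9.03 and 14.4 FPKM in those titled Carm1-/- (1.69, SE 0.40, limma adjusted p = 0.786). Hsp90b1, the ER member of the HSP90 family, was at 107, 77.2 and 138 FPKM against 184, 243 and 278 FPKM (1.14, SE 0.28). Hspa5, the main ER chaperone BiP, was at 218, 184 and 333 FPKM against 369, 443 and 640 FPKM (0.99, SE 0.30). All 3 genes keep the titles apart, with replicate 2 titled H3R17H the lowest. Pdia6, a disulfide isomerase, was at 78.4, 62.3 and 136 FPKM against 181, 158 and 182 FPKM (0.98, SE 0.31). Creld2 had a log2 difference of 1.06 (SE 0.37) and Calr, the calcium-binding lectin chaperone, of 0.67 (SE 0.23), neither overlapping. Herpud1, of ER-associated degradation, had the highest difference of the list, 2.62, but also an SE of 1.15. It was at 5.31, 0 and 1.97 FPKM against 1.57, 23.7 and 67.6 FPKM, so the titles overlap through replicate 1 titled Carm1-/-. Xbp1, the transcription factor of another branch of the response, was at 38.4, 27.3 and 58.6 FPKM against 30.2, 31.8 and 58.0 FPKM (-0.05, SE 0.38).

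The integrated stress response is the neighbouring branch that works through translation. Of 19 tested genes 11 were higher and 8 lower (median 0.05), with 4 higher and 0 lower without overlap (5.20% and 6.12% over all genes). The counts were 16 and 3 without replicate 1 titled Carm1-/-, and without replicate 3 of that title 8 were higher and 11 lower (median -0.27). Ddit3, the transcription factor CHOP, was at 6.90, 8.33 and 9.52 FPKM in the libraries titled H3R17H and at 11.2, 20.9 and 36.4 FPKM in those titled Carm1-/- (1.23, SE 0.44). It does not overlap between the titles, and it was the 1 gene of the list at an unadjusted limma p under 0.05. Of 25 p53 targets 14 were higher and 11 lower (median 0.25). That median was -0.09 without replicate 2 titled Carm1-/-, and 7 were lower without replicate 3 of that title or replicate 2 titled H3R17H. The p53 target Cdkn1a, an inhibitor of the cell cycle, was at 259, 360 and 175 FPKM against 193, 499 and 287 FPKM, with overlap. Among 30 glutathione and redox genes 15 were higher and 15 lower. In that list Gpx2, a glutathione peroxidase, was at 23.6, 72.2 and 59.7 FPKM against 151, 176 and 108 FPKM (1.58, SE 0.42). The metal-binding metallothioneins were lower, Mt1 by -0.75 (SE 0.24) and Mt2 by -0.81 (SE 0.25), both without overlap.

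Ribosomal protein genes leaned lower, but the lean rests on a single library. Of 79 genes for proteins of the cytosolic ribosome 74 were lower and 5 higher, with a median of -0.26. There were 3 lower at an unadjusted limma p under 0.05 (2.68% over all genes) and 8 lower without overlap (6.12%). The list median was 0.08, 0.22 and 0.11 in the libraries titled H3R17H and -0.67, 0.23 and 0.05 in those titled Carm1-/-. Replicate 1 titled Carm1-/- alone is low, and without it 35 were lower and 44 higher, with a median of 0.02. Rps23 was at 762, 759 and 769 FPKM against 250, 551 and 512 FPKM (-0.88, SE 0.31). WT medians of the list were -0.47 to -0.14, between that library and the other 5. The count at an unadjusted limma p under 0.05 was 11 lower without replicate 2 titled Carm1-/- and 0 without replicate 1 titled H3R17H.

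Genes of DNA replication and of mitosis leaned in opposite directions. Of 30 replication genes 22 were lower and 8 higher, with a median of -0.30. There were 4 lower at an unadjusted limma p under 0.05 (2.68% over all genes) and 6 lower without overlap (6.12%). Gmnn, geminin, which blocks a second licensing of origins, was at 193, 134 and 150 FPKM against 52.0, 97.0 and 85.2 FPKM (-1.05, SE 0.30). Mcm7, a subunit of the replicative helicase, was at 110, 95.9 and 95.3 FPKM against 70.1, 44.5 and 54.8 FPKM (-0.84, SE 0.26). Pold1, the catalytic subunit of DNA polymerase delta, was at 26.6, 21.96 and 16.8 FPKM against 10.8, 6.60 and 12.2 FPKM (-1.09, SE 0.35). None of these overlaps between the titles. Of 30 mitosis genes 22 were higher and 8 lower (median 0.22). There were 3 higher at an unadjusted limma p under 0.05 (2.71% over all genes) and 5 higher without overlap (5.20%). Top2a, a topoisomerase that untangles sister chromatids, was at 31.7, 27.8 and 38.6 FPKM against 73.5, 56.9 and 45.8 FPKM (0.81, SE 0.28). Cdc25c, the phosphatase that starts mitosis, was at 15.4, 12.7 and 19.6 FPKM against 28.2, 29.4 and 21.4 FPKM (0.70, SE 0.30). The mitosis median was 0.10 without replicate 1 titled Carm1-/-, where 16 were higher and 14 lower. The count of mitosis genes at an unadjusted limma p under 0.05 was 0 without that library and without replicate 1 or 2 titled H3R17H. The replication median was -0.15 without replicate 1 titled H3R17H, with 2 genes at an unadjusted limma p under 0.05. It was -0.15 without replicate 2 titled Carm1-/- as well, where 13 were higher and 17 lower.

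**Figure D4:**
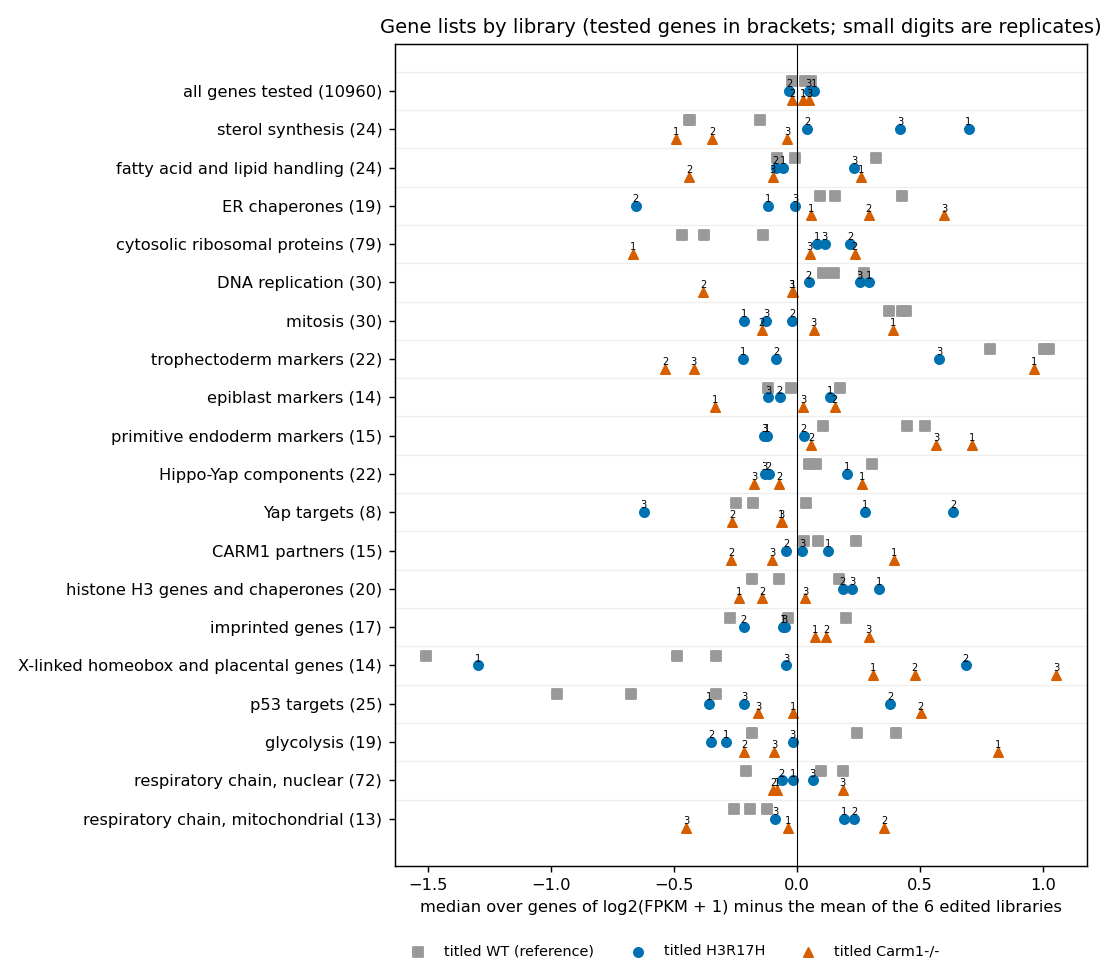
Median of each gene list in each library, as log2(FPKM + 1) minus the mean of the 6 edited libraries (x axis), with the replicate number beside each point. Sterol synthesis, ER chaperones, DNA replication, primitive endoderm markers, histone H3 genes and chaperones, and imprinted genes keep the titles apart. For trophectoderm markers replicate 1 titled Carm1-/- lies at 0.96 and replicates 2 and 3 at -0.54 and -0.42.

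List medians of trophectoderm and epiblast markers overlapped between the titles, and those of primitive endoderm markers did not. Markers of trophectoderm, epiblast and primitive endoderm were present under both titles. Where a library holds many cells, which the labels leave unclear here, fewer cells of a type and less RNA per cell cannot be told apart. Of 22 trophectoderm markers 11 were higher and 11 lower (median -0.07), with 0 without overlap. The list median was -0.22, -0.08 and 0.58 for the title H3R17H and 0.96, -0.54 and -0.42 for the title Carm1-/-, so the second title spans the first. WT lay at 0.78 to 1.02, with replicate 1 titled Carm1-/-. The WT libraries and that library hold Y-linked transcripts, as does replicate 1 titled H3R17H at -0.22, and the part of sex was not tested. Among only the libraries without Y-linked transcripts, which leaves out replicate 1 of both titles, 3 were higher and 19 lower (median -0.72). Without replicate 1 titled Carm1-/- 16 of 22 were lower (median -0.68), with 6 lower at an unadjusted limma p under 0.05. Without replicate 2 of the same title 16 were higher (median 0.39). Cdx2, which specifies trophectoderm, was at 5.71, 2.33 and 6.52 FPKM against 12.7, 0.60 and 0.14 FPKM (-0.91, SE 0.88). Gata3, which acts beside it, was at 147, 183 and 219 FPKM against 276, 73.9 and 77.7 FPKM (-0.63, SE 0.48). Id2 was at 74.5, 39.3 and 52.9 FPKM against 296, 32.4 and 25.7 FPKM. Its difference of 0.23 turned to -0.87 without replicate 1 titled Carm1-/-. Krt8, a keratin of the outer layer, was at 736, 518 and 1994 FPKM against 4025, 846 and 1071 FPKM (0.75, SE 0.65). In each of these 4 genes replicate 1 titled Carm1-/- is the highest of the 6 libraries. Tfap2c and Aqp3 do not follow. For Tfap2c replicate 1 titled Carm1-/- was the lowest of the 6, at 31.2 FPKM. For Aqp3 that library was at 143 FPKM, below replicate 3 titled H3R17H at 196 FPKM. Dppa1 was at 2.25, 9.83 and 42.9 FPKM against 331, 40.7 and 29.9 FPKM (2.70, SE 1.08), the 1 marker at an unadjusted limma p under 0.05.

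Of 14 epiblast markers 6 were higher and 8 lower (median -0.09). Nanog, a pluripotency factor, was at 40.3, 58.4 and 63.5 FPKM against 36.1, 43.1 and 47.5 FPKM (-0.33, SE 0.28). Pou5f1, which encodes OCT4, was at 79.5, 109 and 87.7 FPKM against 63.6, 118 and 64.7 FPKM (-0.21, SE 0.31). Both overlap between the titles. Tbx3, a factor of naive pluripotency, was at 29.1, 35.8 and 28.3 FPKM against 18.9, 16.5 and 10.3 FPKM (-1.02, SE 0.32), without overlap. Sox2 did not reach the filter. It was at 0.13, 0.42 and 1.38 FPKM in the libraries titled H3R17H and at 0.12, 0.14 and 3.14 FPKM in those titled Carm1-/-.

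Of 15 primitive endoderm markers 9 were higher and 6 lower (median 0.02). Of these, 3 were higher at an unadjusted limma p under 0.05 (2.71% over all genes). The list median was -0.12, 0.03 and -0.13 in the libraries titled H3R17H and 0.71, 0.06 and 0.57 in those titled Carm1-/-. The titles do not overlap, but the libraries numbered replicate 2 are near each other, and WT lay at 0.10 to 0.52. Pdgfra, a receptor of this lineage, was at 0.01, 1.06 and 1.82 FPKM against 7.95, 2.91 and 10.01 FPKM (2.01, SE 0.56, limma adjusted p = 0.821). Sparc, a secreted matrix protein, was at 2.74, 5.64 and 27.7 FPKM against 87.1, 27.2 and 42.0 FPKM (2.41, SE 0.74). Serpinh1, a collagen chaperone, was at 1.13, 42.5 and 13.1 FPKM against 210, 26.9 and 68.8 FPKM (2.77, SE 1.08). Of the 3 only Pdgfra keeps the titles apart. Gata6, the factor that specifies the lineage, went the other way, at 47.2, 52.4 and 36.2 FPKM against 20.8, 40.1 and 33.2 FPKM (-0.55, SE 0.32), and Sox17, which marks its later cells, did not reach the filter.

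Genes of the Hippo-Yap pathway had values in both directions. Of 22 tested components 15 were higher and 7 lower (median 0.10). That count was 9 higher and 13 lower without replicate 1 titled Carm1-/-. Yap1 (chromosome 9, 7931999 to 8004596, minus strand) was at 7.18, 3.10 and 8.24 FPKM in the libraries titled H3R17H and at 3.45, 1.42 and 1.88 FPKM in those titled Carm1-/- (-1.11, SE 0.46, limma adjusted p = 0.911). The titles overlap, since replicate 2 titled H3R17H lies below replicate 1 titled Carm1-/-, and all 6 libraries lie below WT at 8.73 to 9.80 FPKM. Taok1, a kinase upstream of the Hippo kinases, was at 7.79, 8.71 and 7.36 FPKM against 3.35, 2.44 and 3.26 FPKM (-1.16, SE 0.34), without overlap. Wwtr1, which encodes the Yap relative TAZ, differed by 0.38 (SE 0.30), and Tead4, the partner of Yap, by -0.42 (SE 0.55). Of 8 tested Yap targets 4 were higher and 4 lower (median 0.02), or 2 and 6 without replicate 3 titled H3R17H. Ctgf was at 32.5, 19 and 4.07 FPKM against 3.74, 2.85 and 0 FPKM (-2.51, SE 0.81, limma adjusted p = 0.842). The titles do not overlap there, but replicate 3 titled H3R17H is close to the libraries titled Carm1-/- and to WT at 4.09 to 6.11 FPKM. Cyr61, another direct target, was at 28.6, 55.4 and 19.6 FPKM against 31.5, 72.8 and 18.6 FPKM (0.15, SE 0.54), with wide overlap.

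Genes close to the edited residue and enzyme were read next. Of 10 arginine methyltransferases 2 were higher and 8 lower (median -0.18), and Carm1 was the 1 gene at an unadjusted limma p under 0.05. Without replicate 1 titled Carm1-/- the split was 5 and 5. Prmt2 was at 4.57, 0.01 and 4.65 FPKM against 16.5, 7.20 and 4.88 FPKM (1.58, SE 0.74), without overlap but with replicate 3 titled Carm1-/- close to the other title. Of 15 partners of CARM1 9 were higher and 6 lower (median 0.06), with 0 at an unadjusted limma p under 0.05. Without replicate 1 titled Carm1-/- 4 were higher and 11 lower. Paraspeckle components, a group of nuclear RNA-binding proteins some of which CARM1 methylates, had 3 higher and 8 lower of 11, with a median of -0.32, and include Raver1. Their median was -0.07 without replicate 1 titled H3R17H. Of 20 genes for histone H3 and its chaperones 6 were higher and 14 lower (median -0.25). Of these, 3 were lower at an unadjusted limma p under 0.05 (2.68% over all genes), or 1 without replicate 1 titled H3R17H. H3f3a, which encodes the replacement variant H3.3, was at 402, 372 and 343 FPKM against 167, 325 and 165 FPKM (-0.84, SE 0.29). Hist1h3e, a replicative H3 gene, was at 5.19, 1.71 and 2.89 FPKM against 0.90, 0 and 0 FPKM (-1.70, SE 0.46). Both keep the titles apart, and replicative H3 genes are near-identical copies whose reads may have been shared. Of 29 repressive and DNA methylation modifiers 17 were higher and 12 lower (median 0.10). Jarid2, a cofactor of Polycomb repressive complex PRC2, had a log2 difference of -0.77 (SE 0.33) and Hdac2, a histone deacetylase, of -0.63 (SE 0.26).

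Imprinted genes and X-linked homeobox and placental genes leaned higher in the libraries titled Carm1-/-. Their counts at an unadjusted limma p under 0.05 depend on single libraries, as does the split of the X-linked list. Of 17 imprinted genes 12 were higher and 5 lower (median 0.23). Of these, 3 were higher at an unadjusted limma p under 0.05 (2.71% over all genes), or 0 without replicate 1 titled H3R17H. Slc38a4, an amino acid transporter expressed from the paternal copy, was at 11.9, 6.08 and 27.2 FPKM against 51.6, 30.0 and 29.7 FPKM (1.43, SE 0.51). Phlda2, which restrains placental growth, was at 1.003, 10.04 and 9.16 FPKM against 23.6, 14.97 and 13.7 FPKM (1.56, SE 0.65). Both keep the titles apart. Of 14 X-linked homeobox and placental genes 11 were higher and 3 lower (median 1.01). Of these, 4 were higher at an unadjusted limma p under 0.05 (2.71% over all genes). The 4 were Xlr3a, Xlr3b, Xlr5c and the homeobox gene Rhox1. The Xlr genes are copies of each other, and Xlr3b is also 1 of the 3 imprinted genes counted above. The count of 4 was 1 among only the libraries without Y-linked transcripts (median 0.44), and 2 without replicate 2 titled H3R17H. It was 1 without replicate 1 titled H3R17H, with 9 higher, 5 lower and a median of 0.53. Without replicate 3 titled Carm1-/- it was 2, with 8 higher, 6 lower and a median of 0.39. Rhox5, an X-linked homeobox gene, was at 45.4, 294 and 117 FPKM against 16.7, 264 and 412 FPKM (0.09, SE 1.13), with overlap. Of 6 oocyte genes 4 were higher and 2 lower (median 0.64). The split was 3 and 3 without replicate 2 titled H3R17H (median 0.32) and without replicate 1 titled Carm1-/- (median 0.63). With all 6 libraries 2 of the oocyte genes were higher at an unadjusted limma p under 0.05 (2.71% over all genes). Zp3, a protein of the zona pellucida, was at 0.15, 0.18 and 0.66 FPKM against 1.80, 19.98 and 4.74 FPKM (2.41, SE 0.69), where replicate 2 titled Carm1-/- is far above the rest.

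Glycolysis genes had 15 higher and 4 lower of 19, with a median of 0.24. Without replicate 1 titled Carm1-/- the split was 9 higher and 10 lower (median -0.03). Pgk1, an enzyme of glycolysis whose gene is on the X chromosome, was at 23.7, 11.3 and 30.5 FPKM against 55.6, 47.1 and 39.3 FPKM (1.17, SE 0.38), without overlap. Of 72 nuclear genes of the respiratory chain 38 were higher and 34 lower (median 0.01). Of its 13 mitochondrial genes 4 were higher and 9 lower (median -0.04). The mitochondrial split was 2 and 11 without replicate 2 titled Carm1-/- (median -0.28), and 7 and 6 without replicate 3 of that title (median 0.18). Alppl2, an alkaline phosphatase among the surface genes, was at 1347, 1543 and 939 FPKM against 277, 868 and 875 FPKM (-1.07, SE 0.44). The titles do not overlap, and all 6 libraries are above WT at 106 to 246 FPKM. In the list of 17 surface genes for hatching and diapause that holds Alppl2, 8 were higher and 9 lower.

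Of 10 genes of the 2-cell stage, when the embryo starts its own transcription, 1 was higher and 9 lower, with a median of -0.38. There were 0 at an unadjusted limma p under 0.05 and 1 lower without overlap (6.12% over all genes). Without replicate 1 titled H3R17H 4 were higher and 6 lower (median -0.17), and among only the libraries without Y-linked transcripts 7 were higher and 3 lower (median 0.23).

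The remaining lists are given by their counts. Higher and lower counts were 17 and 17 of 34 for junctions and polarity, 7 and 7 of 14 for ion and water transport, 4 and 5 of 9 for Fgf signalling and 6 and 7 of 13 for immediate early genes. They were 7 and 11 of 18 for apoptosis regulators, 9 and 8 of 17 for X-linked dosage genes, 10 and 8 of 18 for proteases and inhibitors, 7 and 4 of 11 for the interferon response and 5 and 2 of 7 for retinoid metabolism. In the junction list Cldn3, a claudin of tight junctions, was at 1.10, 0.02 and 11.8 FPKM against 25.5, 6.97 and 12.2 FPKM (2.22, SE 0.89), with overlap. Llgl1, a polarity protein, was at 11.1, 13.7 and 10.9 FPKM against 7.25, 2.54 and 4.37 FPKM (-1.25, SE 0.40), without overlap. Junb, an immediate early transcription factor, was at 1.88, 2.82 and 2.25 FPKM against 0.71, 0.02 and 0.28 FPKM (-1.33, SE 0.38), also without overlap.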

How the data were processed

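RNA was measured in 9 mouse embryo libraries, grouped by title. The values are FPKM, deposited by the authors as 1 table, per the file headers. The builds mm10 and GRCm38 and the aligner Bowtie 0.12.2 are named, with no role, per the submitters' processing notes. Which quantifier and annotation were used is not given in the sources used here. Such values carry no depth, so precision from counting is unknown, and a few abundant genes can shift the rest. The 19 symbols turned into dates are not named.

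Values were tested as log2(FPKM + 1) with limma 3.58.1 in R 4.3.3 (intensity trend, Benjamini-Hochberg adjustment over all tested genes), on the 6 libraries alone. This scale understates the change of low genes. The filter was 1 FPKM in 3 libraries. Differences are titled Carm1-/- minus titled H3R17H. Summaries used numpy 2.4.6 and pandas 2.3.3 in Python 3.11.15, and plots used matplotlib 3.10.9. The fit was tested on simulated data. The comparison, the 40 lists and the naming rule were chosen with earlier results of these data known. The rule named Carm1, the 10 non-overlapping genes in each direction of smallest p with a mean of 5 FPKM in the higher group, up to 4 members of each list, and fixed genes, without predicted models. Some are not reported here, and further list members were named after their values were seen. Replicate numbers did not pair the libraries. Alternatives, 18 in all, changed pseudocount, filter, scaling, trend, weights, libraries, block or sex. Positions are from GENCODE M21 (93.0% of tested genes), promoters from RefSeq.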

Additional observations from a re-analysis of the deposited data

How the results depend on the processing

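No gene passed in 16 of the 18 alternatives. With all 9 libraries in the fit 1 higher gene, Fbxo2, and 1 lower gene, Raver1, passed (both limma adjusted p = 0.0468, against a highest value over the alternatives of 0.902 for Fbxo2 and 0.999 for Raver1). Leaving out 1 library gave 0 higher genes throughout and 0 to 1 lower. The 1 was Hist1h2ae without replicate 1 titled Carm1-/- (limma adjusted p = 0.0232), named after its values were seen, and its near-identical copies may share reads. With a mean of at least 5 FPKM, where fewer genes are tested, 340 higher and 396 lower genes did not overlap. The replicate number does not pair the libraries, with a same-number r of -0.06, 0.19 and -0.05. As a replicate block it gave 0 higher and 0 lower genes, 326 and 313 at an unadjusted limma p under 0.05, and a lowest adjusted p of 0.321.

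List medians moved by less than the spread between libraries in 424 of 432 cases. The exceptions were sterol synthesis at -0.46 and CARM1 partners at -0.20 with only the libraries without Y-linked transcripts, oocyte genes at 1.02 with a pseudocount of 0.1, and 5 with a library left out. The 424 include alternatives that leave the difference of each gene unchanged: no filter, no trend, all 9 libraries, replicate block and sex term. The spread is each list's own, so trophectoderm markers, at -0.72 to 0.39 with a spread of 0.66, count as not moved. Over the libraries left out, the median was -0.36 to -0.21 for histone H3, -0.11 to 0.39 for primitive endoderm, 0.15 to 0.40 for imprinted genes, -0.27 to 0.22 for the integrated stress response and -0.49 to -0.072 for paraspeckle components; the cause was not tested. Counts of higher and lower list members without each library were added after seeing the data, and the higher or the lower count moved by over 1.5 times in 18 of 24 lists. The 6 where neither did were histone H3, epiblast, primitive endoderm and imprinted genes, the nuclear respiratory chain and paraspeckle components.

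Differences of 9 named genes changed sign, none of which had passed. With 1 library left out in turn, the difference ran from -0.83 to 0.28 for Tead4, -0.87 to 0.86 for Id2, -0.78 to 1.495 for Rhox5, -0.11 to 0.57 for Cdkn1a, -1.53 to 0.84 for Xist, -1.88 to 0.60 for Trim43b and -0.32 to 0.58 for Rarb. With only the libraries without Y-linked transcripts Id2 was at -0.64, Xist at 0.19, Fgfr1 at -0.074, Tdpoz1 at 0.047 and Trim43b at 0.47. With array quality weights Id2 was at -0.34. The cause was not tested. Depth is unknown, and genes near 1 FPKM rest on few fragments.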

Other observations

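The following groups were chosen by symbol or chromosome after their values were seen, and are given as values with no test. Of 61 listed replicative histone genes, 40 were tested, with 14 higher and 26 lower in the libraries titled Carm1-/-. The median log2 difference was -0.39, and 7 were lower without overlap (6.12% over all genes). Hist1h4d, a replicative H4 gene, was at 187, 178 and 212 FPKM in the libraries titled H3R17H and at 118, 29.0 and 57.6 FPKM in those titled Carm1-/-. Hist1h2ae was at 174, 119 and 130 FPKM against 87.5, 11.8 and 9.85 FPKM. Both are lower in all 3 libraries titled Carm1-/-, with replicate 1 the highest of them. Hist1h2ak went the other way, at 0.03, 0.10 and 0.10 FPKM against 2.81, 1.87 and 4.53 FPKM. These genes are near-identical copies, so reads may have been moved between them.

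All 10 tested genes of the X-linked Xlr family were higher in the libraries titled Carm1-/-, with a median of 1.38 and 4 without overlap (5.20% over all genes). Xlr3a was at 17.7, 7.01 and 22.5 FPKM against 84.0, 27.9 and 92.8 FPKM, and Xlr3c at 6.69, 1.21 and 4.28 FPKM against 24.4, 8.68 and 41.7 FPKM. The family members are copies of each other and lie side by side, so they are not 10 independent observations. Over all 358 tested X-linked genes 219 were higher, 139 lower and the median was 0.17, against 5060 higher and 5506 lower of 10566 autosomal genes, with a median of -0.02. The X-linked median in single libraries was -0.40, 0.08 and 0.09 for the title H3R17H and -0.08, 0.20 and 0.25 for the title Carm1-/-. In each title the library with Y-linked transcripts is the lowest, and the part of sex in these differences was not tested.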
